A study of Mus musculus with 8 samples.

Results

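Transcripts of the bone morphogenetic protein (BMP) pathway were measured by RNA-seq in spermatogenic cells of the P12 mouse testis, postnatal day 12. The set comprised 10 genes, chosen by symbol as BMP ligands (Bmp2, Bmp4, Bmp7, Bmp8b), receptors (Bmpr1a, Bmpr2) and direct targets (Id1, Id2, Id3, Smad6), out of 28460 gene symbols in the table. All 10 were present and all 10 passed the filter on low counts, Bmp8b through its wild type libraries alone. The groups were 4 samples wild type for Brg1 (Brg1 WT) and 4 in which Brg1 was conditionally deleted (Brg1 cKO). They are described as biological replicates, all from mice of a mixed strain background at the same age. Smarca4 encodes BRG1, an ATPase that drives nucleosome remodelling by SWI/SNF complexes. The sources used here do not name the Cre driver, and so not the cells in which Brg1 was deleted. The cells were freed from the testis with collagenase and trypsin and sieved, and no selection by a surface marker is named.

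BMPs are secreted dimers of the TGF-beta superfamily. They bind pairs of type I and type II serine/threonine kinase receptors, which phosphorylate Smad1, Smad5 and Smad9; these join Smad4 and enter the nucleus, where the ID genes and the inhibitory Smad6 and Smad7 are among the first genes induced. ID proteins carry a helix-loop-helix but no DNA-binding region and hold E proteins in inactive pairs, which delays differentiation in many lineages. In the mouse testis Bmp8b is known from knockouts to be needed for spermatogenesis, and Bmp4 has been studied as a signal from Sertoli cells, the somatic nurse cells of the tubule, to spermatogonia.

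Library totals ran from 20456743 to 32596038 estimated counts. Levels below are CPM, computed on TMM-adjusted library sizes. The targeted gene Smarca4 had 337.9 to 356.7 CPM in Brg1 WT against 110.9 to 129.2 CPM in Brg1 cKO, and the groups did not overlap. The germ cell genes Ddx4 and Dazl were abundant (214 ± 24.1 and 645 ± 72.4 CPM in Brg1 WT, SD, n = 4), but so was Clu, a Sertoli cell product (2808 ± 329 CPM), so the libraries held somatic RNA too. In such bulk samples, fewer cells of a type and less RNA per cell cannot be told apart. Libraries that stood apart were Brg1 WT replicates 1 and 2, with 293.4 and 259.8 summed CPM of 12 pachytene and spermatid genes against 135 to 206.9 in the other libraries, and Brg1 cKO replicate 4, with 2297 summed CPM of 13 peritubular and stromal genes against 3679 to 3733 in the other Brg1 cKO libraries. Values without these libraries stand beside the results that they move most.

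Of the 10 genes, 3 rose in Brg1 cKO (Bmpr2, Id2 and Id3), 1 fell (Bmp8b) and 6 were not called at an adjusted p under 0.05 (edgeR quasi-likelihood test, adjusted over all 16059 genes tested). Over all genes tested, 20.6% were called, 8.79% higher and 11.8% lower. That split, 1412 higher and 1900 lower, depends on the scaling and the test: it was 812 and 2184 with library totals alone, 2228 and 2227 with DESeq2, 7877 and 629 with the median of 17 pan-germ genes taken as no change, and 71 and 8572 with that of 21 Sertoli cell genes. Among the 10 genes the pan-germ setting called 9 higher and 1 lower, and the Sertoli setting called none higher and 2 lower. The libraries of the genotypes did not overlap for Bmpr1a, Bmpr2 and Id2, which were higher in every Brg1 cKO library, and for Bmp8b, which was lower in every one. Over all genes tested the shares without overlap were 11.1% higher and 15% lower. With Brg1 WT replicates 1 and 2 left out, none of the 10 was called; the log2 fold changes of the 4 called genes were then -1.46 for Bmp8b, 0.28 for Bmpr2, 0.35 for Id2 and 0.89 for Id3. In that smaller set 444 of all 16059 genes were called, against 3312 with all libraries.

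**Figure D1:**
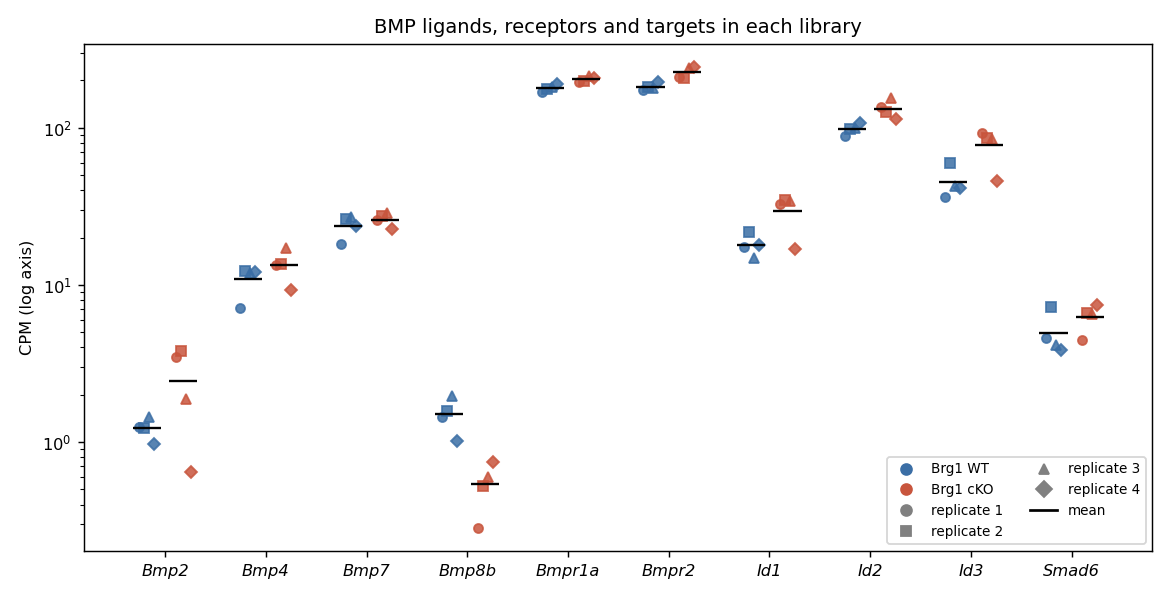
CPM of the 10 BMP pathway genes in each library on a log axis, Brg1 WT in blue and Brg1 cKO in red; the symbol gives the replicate and the bar the mean of 4 libraries. Bmp8b lies between 1.02 and 1.96 CPM in Brg1 WT and between 0.285 and 0.744 CPM in Brg1 cKO, while for Id1 and Id3 the Brg1 cKO replicate 4 sits among the Brg1 WT libraries.

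Promoter sequences are shown for the 4 called genes, whether or not they are targets of BMP signalling, and for Smad6, which BMP signalling induces. They come from RefSeq annotation of build GRCm38.p6, 250 bases before to 20 bases after the annotated start, 5′ to 3′ on the strand of the gene. Capitals mark GGCGCC, a GC-rich element bound by Smad1 and Smad5 with Smad4, and GTCTAGAC, the palindromic SMAD-binding element; both read the same on either strand, both strands are thus searched at once, and no window held both.
Bmp8b (chr4:123104911-123105180, plus strand): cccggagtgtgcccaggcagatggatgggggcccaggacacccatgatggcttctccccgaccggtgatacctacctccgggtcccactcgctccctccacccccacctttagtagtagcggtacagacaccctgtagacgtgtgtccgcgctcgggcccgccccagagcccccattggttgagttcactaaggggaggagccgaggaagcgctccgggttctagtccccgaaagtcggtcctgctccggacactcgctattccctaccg
Bmpr2 (chr1:59764029-59764298, plus strand): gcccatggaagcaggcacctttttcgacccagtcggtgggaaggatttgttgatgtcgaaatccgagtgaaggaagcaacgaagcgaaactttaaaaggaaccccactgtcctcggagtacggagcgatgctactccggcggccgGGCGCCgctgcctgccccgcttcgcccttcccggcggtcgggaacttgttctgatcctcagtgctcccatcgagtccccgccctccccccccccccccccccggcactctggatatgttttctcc
Id2 (chr12:25096073-25096342, minus strand): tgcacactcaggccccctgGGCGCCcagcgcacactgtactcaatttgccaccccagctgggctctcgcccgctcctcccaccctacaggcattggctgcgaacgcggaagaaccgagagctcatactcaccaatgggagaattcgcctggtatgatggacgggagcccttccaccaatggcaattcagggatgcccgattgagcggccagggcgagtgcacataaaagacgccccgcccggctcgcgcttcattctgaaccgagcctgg
Id3 (chr4:136143572-136143841, plus strand): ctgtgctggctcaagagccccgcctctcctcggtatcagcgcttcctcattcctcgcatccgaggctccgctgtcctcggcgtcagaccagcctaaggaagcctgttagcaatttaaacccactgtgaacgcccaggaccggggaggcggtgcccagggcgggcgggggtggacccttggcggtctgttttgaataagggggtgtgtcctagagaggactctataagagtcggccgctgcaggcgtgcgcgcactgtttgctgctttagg
Smad6 (chr9:64022040-64022309, minus strand): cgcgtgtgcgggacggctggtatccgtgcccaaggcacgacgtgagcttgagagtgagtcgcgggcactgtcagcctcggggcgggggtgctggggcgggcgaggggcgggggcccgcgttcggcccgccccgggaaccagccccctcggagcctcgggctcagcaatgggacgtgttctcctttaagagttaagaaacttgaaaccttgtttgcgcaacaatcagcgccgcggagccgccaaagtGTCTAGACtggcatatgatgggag
The promoter table held 7 of the 10 genes, all but Bmp2, Bmp7 and Id1. GGCGCC occurred in 3 of the 7 windows (Bmpr1a, Bmpr2 and Id2) and in 10.4% of all 32851 windows of the table. In Id2 it spans bases -231 to -226 and in Bmpr2 bases -105 to -100, counted from the start. The windows of Bmpr1a, Bmpr2 and Id2 were 78.1%, 62.2% and 62.2% G or C. The share of GGCGCC in windows of like composition was not counted. GTCTAGAC occurred in 1 of the 7, Smad6, where it spans the start from base -4 to base 4, and in 0.183% of all windows. Of the called genes, Bmp8b and Id3 had neither run of letters in this window. Sequence further from the start was not searched, so a missing run does not speak to control by BMPs. The shorter half-site GTCT, on either strand, is no guide, since 85.2% of all windows hold it.

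Among the ligands, only Bmp8b was called. Bmp8b had 1.45, 1.58, 1.96 and 1.02 CPM in Brg1 WT replicates 1 to 4 and 0.285, 0.529, 0.599 and 0.744 CPM in Brg1 cKO replicates 1 to 4. Every Brg1 cKO library lay below every Brg1 WT library, and the spread within each genotype was wide for its mean. Mean Bmp8b was 1.504 ± 0.387 CPM in Brg1 WT against 0.539 ± 0.192 CPM in Brg1 cKO (SD, n = 4 each). On the log2 scale the gene fell by 1.47 ± 0.323 (SE, adjusted p = 0.015). These levels rest on few reads, 25.11 to 64.14 estimated counts per library in Brg1 WT and 6.22 to 15.04 in Brg1 cKO. Bmp8b passed the filter through its Brg1 WT libraries, the group where it is high. Its place among the tested genes is thus not separate from the fall.

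Bmp8a is a close paralog of Bmp8b, and reads from sequence common to both can be divided between them. The estimated counts of Bmp8b were fractional, so its value is uncertain. In Brg1 cKO replicates 1 to 3 Bmp8b had 6.22, 14.53 and 14.94 estimated counts, while Bmp8a had whole values of 4, 6 and 0. Bmp8a thus need not be the only sequence sharing these reads, and which sequences did was not tested. Bmp8a itself had 2.29 to 14.55 estimated counts in Brg1 WT and 0 to 5.76 in Brg1 cKO and did not pass the filter. When both genes were added together, a choice made after seeing the data, the log2 fold change was -1.33 and the adjusted p = 0.021. That sum covers only reads divided between Bmp8a and Bmp8b. Oxct2b, a gene lying within Bmp8b on the same strand, shares no exonic base with it in the GENCODE M21 annotation and had 7.51 to 20.34 estimated counts in Brg1 WT and 2 to 9 in Brg1 cKO. Germ cell markers had negative medians in the same comparison: the 17 pan-germ genes had a median log2 fold change of -0.33 (2 of 17 lower, none higher; 2732 to 3511 summed CPM in Brg1 WT, 2136 to 2826 in Brg1 cKO, none at 0), and the 12 pachytene and spermatid genes one of -1.25 over the 10 tested (6 lower, none higher; 186.9 to 293.4 and 135 to 149 summed CPM, with Pgk2 and Adam3 at 0 in some library). The 9 genes of the differentiating spermatogonia list had a median of -0.74 (5 lower, 1 higher; 703.1 to 811.7 summed CPM in Brg1 WT, 508.7 to 667.5 in Brg1 cKO, none at 0). Of all genes tested, 8.79% were called higher and 11.8% lower, and the pan-germ count of 2 of 17 lower is close to that share. The part of these germ cell genes in the fall of Bmp8b was not tested.

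Bmp2, Bmp4 and Bmp7 were not called. Bmp2 had 1.25, 1.23, 1.44 and 0.977 CPM in Brg1 WT against 3.48, 3.79, 1.89 and 0.643 CPM in Brg1 cKO, replicates 1 to 4. The Brg1 cKO libraries thus lay on both sides of Brg1 WT, replicates 1 to 3 above it and replicate 4 below. The log2 fold change was 1.00 ± 0.452 (SE, adjusted p = 0.14), and without Brg1 cKO replicate 4 it was 1.31 (adjusted p = 0.017).

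Bmp4, the ligand linked to Sertoli cells, had 7.11, 12.3, 11.9 and 12.2 CPM in Brg1 WT against 13.5, 13.5, 17.2 and 9.25 CPM in Brg1 cKO. Brg1 WT replicate 1 was far below the other Brg1 WT libraries, and the groups overlapped (log2 fold change 0.30 ± 0.220 SE, adjusted p = 0.35). It was 0.143 without Brg1 WT replicate 1 and 0.15 without Brg1 cKO replicate 3. Bmp7, a ligand known from kidney and skeletal development, had 18.1 to 26.95 CPM in Brg1 WT against 22.6 to 28.5 CPM in Brg1 cKO (log2 fold change 0.13 ± 0.133 SE, adjusted p = 0.50). Without Brg1 WT replicate 1 it was 0.0252, without Brg1 WT replicate 3 0.213 and without Brg1 cKO replicate 3 0.0857. Within each genotype the lowest libraries for both were Brg1 WT replicate 1 and Brg1 cKO replicate 4, which also had the lowest summed peritubular and stromal markers (1622 and 2297 CPM). Of a wider list of 14 BMP-type ligands, 6 passed the filter and 1, Bmp8b, was called. Of all genes tested, 20.6% were called. The list median was 0.215 against 0.013 over all genes tested. Bmp5 and Bmp6 were not called (log2 fold changes 0.65 and -0.20, adjusted p = 0.091 and 0.51).

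Of the receptors in the set, Bmpr2 rose and Bmpr1a was not called. Bmpr2, the type II receptor that is specific for BMPs, had 173.9, 182.1, 178.9 and 193.8 CPM in Brg1 WT against 211.0, 208.4, 239.5 and 243.0 CPM in Brg1 cKO. The groups did not overlap, and the means of 182 ± 8.44 and 226 ± 18.3 CPM (SD, n = 4 each) gave a log2 difference of 0.31 ± 0.070 (SE; adjusted p = 0.017), which turned to -0.076 when the Sertoli cell median was taken as no change. Without Brg1 cKO replicate 4 and Brg1 WT replicate 2 together, a choice made after seeing the data, Bmpr2 was not called (adjusted p = 0.074). Bmpr1a, a type I receptor, had 167.6, 176.1, 182.2 and 190.3 CPM in Brg1 WT against 196.4, 196.9, 214.2 and 206.5 CPM in Brg1 cKO. All 4 Brg1 cKO libraries lay above all 4 Brg1 WT libraries, but at a log2 difference of 0.18 ± 0.060 (SE) the gene missed the threshold (adjusted p = 0.054). DESeq2 gave an adjusted p = 0.0092, and relative to the Sertoli cell median the value turned to -0.20 (adjusted p = 0.017). The 21 Sertoli cell genes, none at 0, had a median log2 fold change of 0.38 in the same libraries (9 higher, 1 lower; 6852 to 8766 summed CPM in Brg1 WT against 8746 to 11570 in Brg1 cKO). Their part in the receptor differences was not tested.

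Over all genes tested, 8.79% were called higher and 11.8% lower. Of 10 tested receptors and coreceptors, 3 were higher, none was lower and 7 were not called, at a list median of 0.25. Besides Bmpr2 these were Acvr1, a further type I receptor (16.6 ± 2.31 to 24.6 ± 2.58 CPM, SD, n = 4 each; 0.57 on the log2 scale, adjusted p = 0.014; 0.187, adjusted p = 0.23, relative to the Sertoli cell median), and Rgmb, a coreceptor, at 0.33 (adjusted p = 0.045), a value that turned to -0.058 relative to the Sertoli cell median. Rgmb was also not called with any of 6 single libraries left out. Of the 7 not called, Bmpr1b, Acvr2b and Rgma had negative log2 fold changes (-0.42, -0.38 and -0.11). Those of Bmpr1a, Acvr2a, Acvrl1 and Eng were positive. Acvr2b was lower in every Brg1 cKO library than in any Brg1 WT library, and Bmpr1a and Acvrl1 were higher in every one. Of the SMADs that carry the signal, Smad1, Smad5, Smad9 and Smad4, none was called by edgeR, and Smad5 alone had an unadjusted p under 0.05, at a log2 fold change of 0.15. Smad1 and Smad4 were at 0.089 and 0.12. Smad9 was at -0.37, with every Brg1 cKO library below every Brg1 WT library.

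The inhibitory SMADs, which BMP signalling itself induces, differed in abundance and in call. Smad6 had 4.62, 7.25, 4.16 and 3.83 CPM in Brg1 WT against 4.49, 6.63, 6.50 and 7.47 CPM in Brg1 cKO. Brg1 WT replicate 2 lay above 3 of the 4 Brg1 cKO libraries, and the gene was not called (log2 fold change 0.34 ± 0.234 SE, adjusted p = 0.32). Without Brg1 WT replicate 2 it was 0.583 (adjusted p = 0.083), and relative to the Sertoli cell median -0.0449. Its relative Smad7 had 35.4, 40.5, 44.4 and 45.7 CPM in Brg1 WT against 70.5, 59.2, 58.2 and 57.0 CPM in Brg1 cKO, with no overlap. Smad7 rose by 0.56 ± 0.100 on the log2 scale (SE, adjusted p = 0.0071). Relative to the Sertoli cell median Smad7 was at 0.177 and not called (adjusted p = 0.16). The difference between the log2 fold changes of Smad6 and Smad7 was not tested. Of 8 tested intracellular inhibitors, Smad7, Bambi, a pseudoreceptor without kinase (0.50, adjusted p = 0.0094; 0.119, adjusted p = 0.34, relative to the Sertoli cell median), and Tob1 (0.33, adjusted p = 0.026; -0.052 relative to the Sertoli cell median) were higher and none was lower, at a list median of 0.24. Of all genes tested, 8.79% were higher and 11.8% lower.

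Secreted antagonists and processing enzymes gave 3 higher, no lower and 9 uncalled genes of 12, at a list median of 0.32. The shares over all genes tested were 8.79% higher and 11.8% lower. Nbl1, a DAN-family antagonist, went from 21.3 ± 2.94 to 35.6 ± 10.03 CPM (log2 fold change 0.74, adjusted p = 0.029). Bmp1, a protease that cleaves procollagen and the antagonist chordin and is not itself a BMP ligand, went from 31.5 ± 7.78 to 51.2 ± 5.87 CPM (0.70, adjusted p = 0.028). Chrd, which encodes chordin, went from 0.931 ± 0.181 to 1.61 ± 0.0682 CPM (0.78, adjusted p = 0.029; SD, n = 4 each). Each of the 3 lost its call under some of the alternatives, Nbl1 under 8, Bmp1 under 7 and Chrd under 9 of 21, the Sertoli cell median among them (0.357, 0.32 and 0.403).

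**Figure D2:**
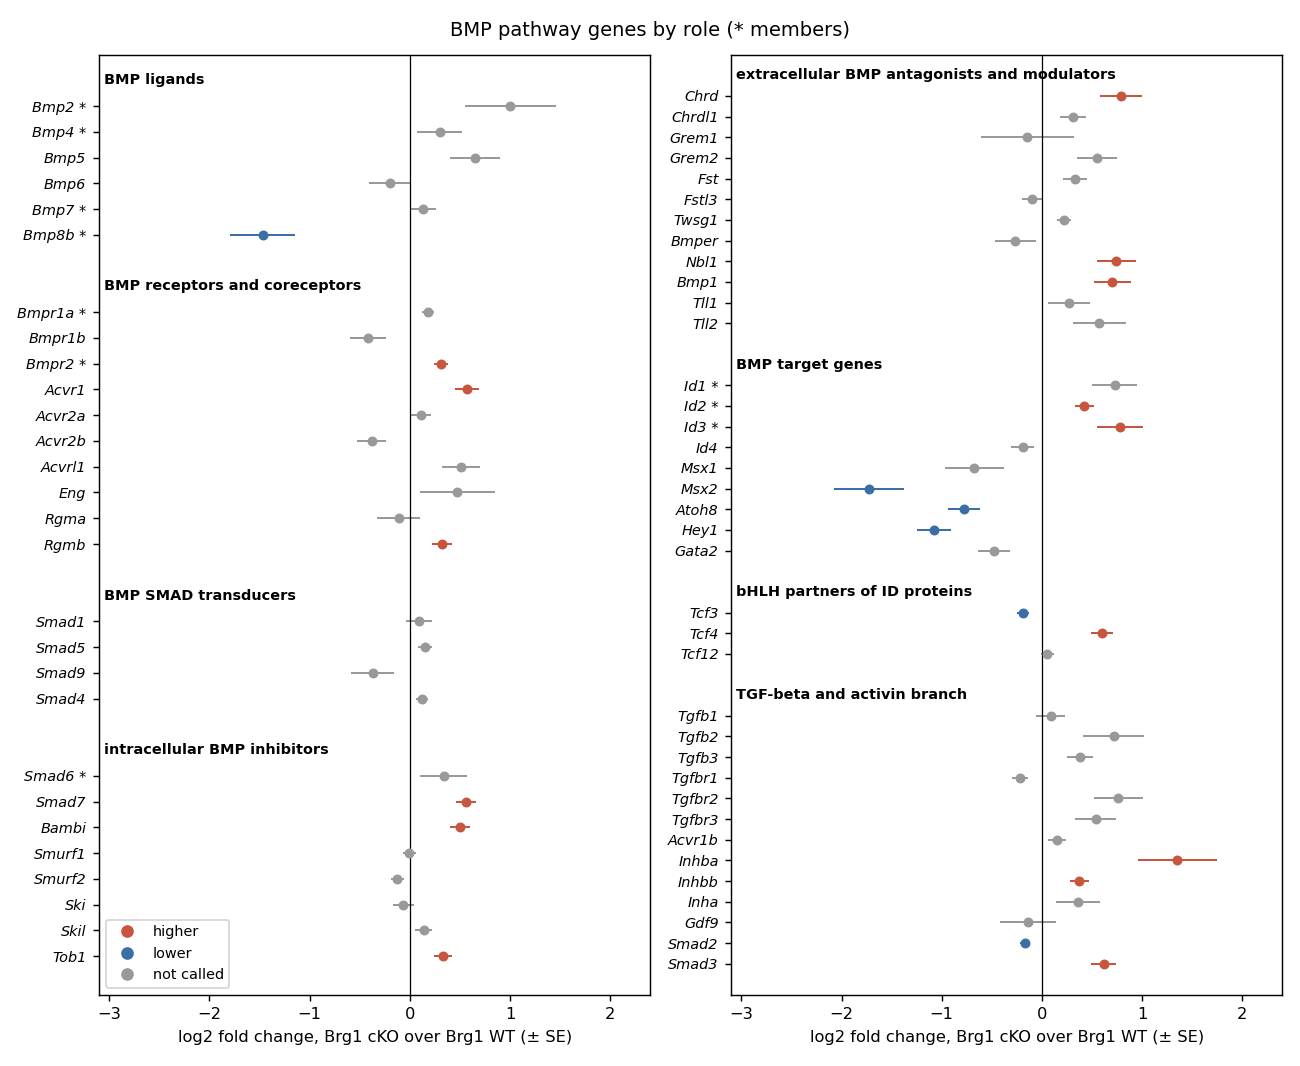
Log2 fold change of Brg1 cKO over Brg1 WT with its SE for the 65 tested genes of the BMP lists and the TGF-beta branch, grouped by role; red and blue points were called higher and lower, grey points were not called, and asterisks mark the 10 genes of the set. Bmp8b at -1.47 and Msx2 at -1.73 are the lowest points, and Id1, Id2 and Id3 lie between 0.42 and 0.78; with the Sertoli cell median as no change the zero line would stand at 0.384, and with the pan-germ median at -0.325, so points between 0 and those values change sign.

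Among the target genes, Id2 and Id3 rose and Id1 was higher without passing the test. Id2 had 88.5, 97.5, 99.4 and 107.8 CPM in Brg1 WT against 134.6, 126.4, 153.3 and 112.8 CPM in Brg1 cKO. All Brg1 cKO libraries lay above all Brg1 WT libraries, replicate 4 by little. The means of 98.3 ± 7.92 and 132 ± 16.9 CPM (SD, n = 4 each) gave a log2 difference of 0.42 ± 0.097 (SE; adjusted p = 0.017), and 0.039 (adjusted p = 0.77) relative to the Sertoli cell median.

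Id3 had 36.4, 59.6, 42.5 and 41.3 CPM in Brg1 WT against 91.8, 85.7, 85.2 and 46.1 CPM in Brg1 cKO. In Brg1 cKO, replicates 1 to 3 were close together and above every Brg1 WT library, while replicate 4 was below Brg1 WT replicate 2. The log2 fold change was 0.78 ± 0.232 (SE, adjusted p = 0.047). This call was lost under 13 of 21 alternatives, among them leaving out any of Brg1 WT replicates 1, 3 and 4 or Brg1 cKO replicates 1 to 3, where the adjusted p ran up to 0.11. Without Brg1 cKO replicate 4 the log2 fold change was 0.96 (adjusted p = 0.0083), and relative to the Sertoli cell median 0.398 (adjusted p = 0.19).

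Id1 had the same pattern of libraries as Id3 and stood just short of the threshold. It had 17.4, 21.8, 14.7 and 17.9 CPM in Brg1 WT against 32.9, 34.7, 34.3 and 16.8 CPM in Brg1 cKO. Replicates 1 to 3 of Brg1 cKO stood above all Brg1 WT libraries and replicate 4 stood within them. The log2 fold change was 0.73 ± 0.225 (SE, adjusted p = 0.0501). Under 6 of 21 alternatives Id1 was called, among them DESeq2 (adjusted p = 0.0073) and the set without Brg1 cKO replicate 4 (log2 fold change 0.92, adjusted p = 0.0058). Relative to the Sertoli cell median it was at 0.343 (adjusted p = 0.24). Id4, the ID gene known as a marker of spermatogonial stem cells, had 14 to 17.6 CPM in Brg1 WT against 12.2 to 15.8 CPM in Brg1 cKO. Id4 was not called (log2 fold change -0.19 ± 0.116 SE, adjusted p = 0.25). Relative to the pan-germ median it was at 0.13 (adjusted p = 0.36). Relative to the Sertoli cell median it was at -0.577 and called lower (adjusted p = 0.0022). The 15 genes of the undifferentiated spermatogonia list, which holds Id4, had a median of -0.51 (1 higher, 7 lower). Shares over all genes tested were 8.79% higher and 11.8% lower. The list summed to 553.6 to 727.1 CPM in Brg1 WT and 444.9 to 576.6 CPM in Brg1 cKO.

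Markers of somatic cells differed between the same libraries. The 13 peritubular and stromal genes summed to 1622, 2762, 2590 and 2531 CPM in Brg1 WT against 3733, 3679, 3695 and 2297 CPM in Brg1 cKO, replicates 1 to 4. Brg1 cKO replicates 1 to 3 were alike and high and replicate 4 stood within Brg1 WT. Within Brg1 WT the lowest library was replicate 1 for this sum and for Id3, but replicate 3 for Id1. Of these 13 genes 2 were called higher and 1 lower, at a median of 0.42, and none was at 0. Among all genes tested the shares were 8.79% higher and 11.8% lower. The 12 endothelial genes, a cell type in which Id1 and Id3 are known to be abundant, summed to 202.4, 327.4, 309.2 and 298.6 CPM in Brg1 WT against 358.6, 532.3, 257.3 and 212.7 CPM in Brg1 cKO. Brg1 cKO replicates 3 and 4 were within the range of Brg1 WT for this sum. No endothelial gene was called by edgeR or had an unadjusted p under 0.05 (median 0.39). The 10 Leydig cell genes summed to 156.4 to 172.4 CPM in Brg1 WT against 205.4 to 239.6 CPM in Brg1 cKO. Most of that sum was a single gene, Nr5a1, at 101.5, 100.1, 111 and 119.2 CPM against 147.2, 121.1, 145.5 and 148.1 CPM. Nr5a1 and Fabp3 were the 2 called higher, none was lower and 8 were not called, Star and Cyp11a1 among them. The 11 macrophage genes summed to 43.0 to 61.9 and 39.9 to 84.1 CPM (none of 11 called, none with an unadjusted p under 0.05). No marker in these lists was at 0 in any library. The part of these cells in the ID differences was not tested.

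**Figure D3:**
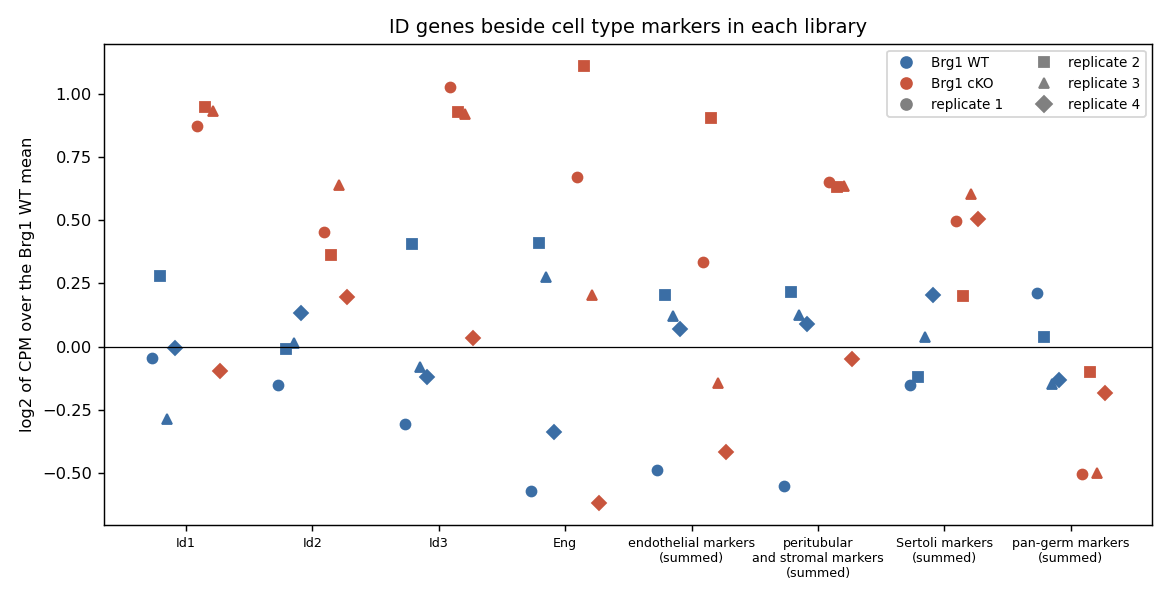
Level in each library as log2 of CPM over the Brg1 WT mean, for the ID genes, the BMP coreceptor Eng and summed marker lists (endothelial 12, peritubular and stromal 13, Sertoli 21 and pan-germ 17 genes); blue is Brg1 WT, red is Brg1 cKO, and the symbol gives the replicate. Brg1 cKO replicate 4 lies at -0.096 for Id1, 0.035 for Id3 and -0.049 for the stromal markers, while the other 3 Brg1 cKO libraries lie at 0.87 to 1.03 for Id1 and Id3 and 0.63 to 0.65 for the stromal markers.

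The targets Hey1, Msx2 and Atoh8 fell. Among all genes tested 8.79% rose and 11.8% fell. Of 9 tested target genes 2 rose (Id2 and Id3), 3 fell and 4 were not called (Id1, Id4, Msx1 and Gata2), at a list median of -0.48. Msx1 and Gata2 had log2 fold changes of -0.67 and -0.48 (adjusted p = 0.13 and 0.063). Both were lower in every Brg1 cKO library than in any Brg1 WT library, as were 15% of all genes tested. Msx1 had only 5 to 14 estimated counts per library in Brg1 cKO. Smad6 and Smad7, which BMPs also induce, are counted above with the inhibitors and not in this list. Hey1, a bHLH repressor also induced by Notch, had 11.7, 11.3, 11.7 and 9.68 CPM in Brg1 WT against 6.12, 6.31, 4.64 and 3.95 CPM in Brg1 cKO (log2 fold change -1.08 ± 0.166 SE, adjusted p = 0.0044). Msx2, a homeobox gene that answers BMPs in many embryonic tissues, went from 1.11 ± 0.347 to 0.348 ± 0.146 CPM (-1.73, adjusted p = 0.011). It had 5.78 to 11.44 estimated counts per library in Brg1 cKO. Like Bmp8b, Msx2 passed the filter through its Brg1 WT libraries (19.17 to 51.28 estimated counts). Atoh8, a bHLH factor, went from 13.1 ± 2.66 to 7.62 ± 0.973 CPM (-0.78, adjusted p = 0.012; SD, n = 4 each). The libraries of the genotypes did not overlap for any of these 3 genes, which are also controlled by other pathways and kept a negative sign under every scaling tried.

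The partners of ID proteins were measured as well. Tcf4, an E-protein gene, had 76.7 to 110.3 CPM in Brg1 WT against 126.7 to 155.5 CPM in Brg1 cKO (log2 fold change 0.60 ± 0.107 SE, adjusted p = 0.0073), without overlap. Relative to the Sertoli cell median Tcf4 was at 0.217 and not called (adjusted p = 0.12). Tcf3, which encodes E2A, was 1.14-fold lower (adjusted p = 0.043; 0.135 on the log2 scale relative to the pan-germ median). The Tcf3 call was lost under 11 of 21 alternatives, among them leaving out any single library but Brg1 cKO replicate 2. Tcf12 was not called (log2 fold change 0.053, adjusted p = 0.59). In the related TGF-beta and activin branch 3 of 13 genes were higher and 1, Smad2, was lower, at a list median of 0.37. The shares over all genes tested were 8.79% higher and 11.8% lower. Smad3, which carries TGF-beta and activin signals, went from 50.8 ± 6.57 to 77.8 ± 11.2 CPM (0.61, adjusted p = 0.010; 0.231, adjusted p = 0.14, relative to the Sertoli cell median). Inhbb, an inhibin and activin subunit of Sertoli cells, went from 171 ± 17.7 to 222 ± 20.5 CPM (0.37, adjusted p = 0.021; -0.0098 relative to the Sertoli cell median), and Inhba from 0.969 ± 0.191 to 2.46 ± 1.36 CPM (1.35, adjusted p = 0.039; SD, n = 4 each). The Sertoli cell list itself holds Inhbb, so that setting is no separate measure for it. The libraries of the genotypes overlapped for Inhba, and its call was lost under 11 of 21 alternatives, among them limma-voom (adjusted p = 0.067) and leaving out any single library but Brg1 cKO replicate 4.

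Over all 8 lists 21 of 65 tested genes were called, 15 higher and 6 lower, or 32.3% against 20.6% of all genes tested. With the Sertoli cell median as no change none of the 65 was called higher and 25 lower, and with the pan-germ median 45 were called higher and 4 lower. With Brg1 WT replicates 1 and 2 left out 1 of the 65, Tcf4, was called. Leaving out 1 library lowered the count to 12 for Brg1 WT replicate 1, 12 for Brg1 cKO replicate 1 and 11 for Brg1 cKO replicate 3. The 65 genes had a median log2 fold change of 0.22.

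Levels of different genes were compared per kb of the longest coding transcript in GENCODE M21. In Brg1 WT, Id2 was the highest of the 10 at 49.9 ± 4.02 CPM per kb (SD, n = 4), followed by Id3 (35.2 ± 7.93), Bmpr1a (30.1 ± 1.61), Id1 (15.5 ± 2.52) and Bmpr2 (14.1 ± 0.655). The ligands Bmp7 and Bmp4 had 6.47 ± 1.102 and 5.27 ± 1.22 CPM per kb and Smad6 1.67 ± 0.524. At the foot stood Bmp8b and Bmp2, at 0.512 ± 0.132 and 0.344 ± 0.0530 CPM per kb. The ranges of the 4 libraries overlapped for the neighbours Id2 and Id3, Id3 and Bmpr1a, Id1 and Bmpr2, Bmp7 and Bmp4, and Bmp8b and Bmp2, so these pairs were not ordered beyond their spread. In Brg1 cKO the mean of Bmp2 was 0.689 ± 0.412 and that of Bmp8b 0.184 ± 0.0652 CPM per kb, with overlapping ranges (0.181 to 1.07 and 0.0969 to 0.253).

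Variation between libraries of 1 genotype was described by correlating log2 CPM over the 8 libraries after subtracting each genotype's mean. Id1 and Id3 varied together (r = 0.911), as did Bmp4 and Bmp7 (0.917), Bmp4 and Id2 (0.889) and Bmpr1a and Bmpr2 (0.823), whereas Bmp2 and Bmpr2 varied inversely (-0.833). All pairs come from the same 8 libraries and share their depth and cell make-up. Single libraries can carry such values: Brg1 cKO replicate 4 stood apart for Id1 and Id3, and Brg1 WT replicate 1 for Bmp4. The correlations without these libraries were not computed. Among 12432 genes outside the lists, the most alike were Elovl1, Abcf1 and Medag for Id1 (0.982 to 0.986), Fgfr2, Ror1 and Mrvi1 for Id3 (0.985 to 0.995) and Tspan31, Fggy and Pfkm for Id2 (0.980 to 0.992). For the ligands they were Plac9b, Tekt2 and Smim11 for Bmp2 (0.981 to 0.988), Tubb6, Arap1 and Selenbp1 for Bmp4 (0.980 to 0.988), B3galtl, Slc2a10 and Armcx4 for Bmp7 (0.971 to 0.977) and Ippk, Ska1 and Mef2b for Bmp8b (0.951 to 0.970). For Bmpr1a they were Btbd1, Dennd6a and Rdh13 (0.960 to 0.992), for Bmpr2 Pigb, Ccni and Ssh1 (0.976 to 0.983) and for Smad6 Nlrp4f, Ttn and Rhox1 (0.945 to 0.972). The highest of so many values over 8 libraries are large by selection and are given as a description.

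**Figure D4:**
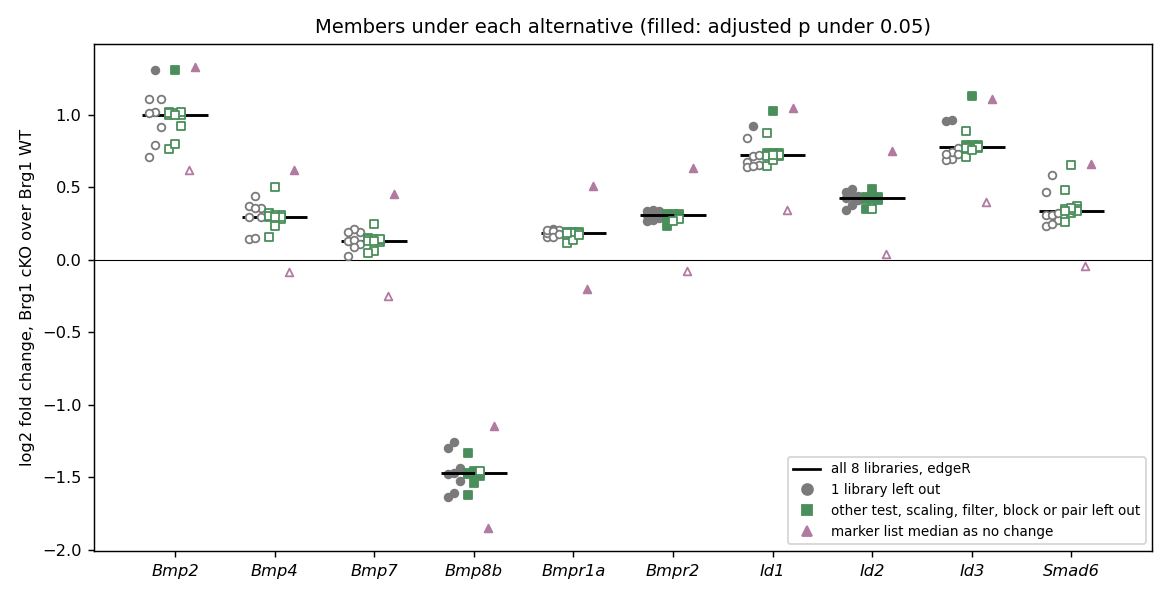
Log2 fold change of each of the 10 genes with all libraries (black line) and under up to 21 alternatives; circles leave out 1 library, squares change the test, scaling or filter, add the replicate block, sum Bmp8a with Bmp8b or leave out a pair of libraries, and triangles take a marker list's median as no change. Filled points had an adjusted p under 0.05. Bmp8b stays between -1.85 and -1.15, and Id3 is positive throughout but mostly open, while Bmp4, Bmp7, Bmpr1a, Bmpr2 and Smad6 fall below 0 relative to the Sertoli cell median.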

How the data were processed

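Per the labels' protocols, the 8 libraries were stranded and made from mRNA. The authors deposited one estimated count for each symbol and library, and the submitters' processing notes name kallisto 0.42.5, edgeR and the build mm9. Neither the annotation nor how transcripts were summed is stated in the sources used here. Because 49.6% of values were not whole, they were rounded. Genes were filtered with filterByExpr, normalized with TMM and tested with the edgeR 4.0.16 quasi-likelihood test (robust, genotype the only term, R 4.3.3), with Benjamini-Hochberg adjustment over 16059 genes, a threshold of 0.05, and the SE taken as the absolute log2 fold change over the square root of F. The test was checked on simulated data. Depth limits low genes, and p-values cover the spread between these 8 libraries. Alternatives were DESeq2 1.42.0, limma-voom (limma 3.58.1), other scalings and filters, libraries left out and the replicate block. Named were the 10 genes, Smarca4, Bmp8a, Id4, Smad7, up to 3 called genes with the smallest adjusted p in each list and the 3 most correlated genes of each member, among genes whose average log2 CPM reached 1 and whose symbol was not provisional; other genes and marker values were named after their values were seen. The members, the lists and the tests were chosen with earlier results of these data known. Promoters and lengths come from a later build, matched by symbol.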

Additional observations from a re-analysis of the deposited data

Results flagged for a closer look

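Among 58 groups (29 genes in both genotypes), 6 groups of 4 libraries held 1 library whose distance to the nearest other exceeded 0.829 of the group's range. Chance alone gives about 1 in 20 such groups. Bmp4 had 7.11 CPM in Brg1 WT replicate 1, while the remaining Brg1 WT libraries had 11.9 to 12.3 CPM. In Brg1 cKO replicate 4, Id1 had 16.8 CPM against 32.9 to 34.7 CPM in the other Brg1 cKO libraries, and Id3 had 46.1 CPM against 85.2 to 91.8 CPM. Msx2 was higher in that library, at 0.566 CPM against 0.264 to 0.296 CPM. In Brg1 cKO replicate 1, Smad7 had 70.5 CPM against 57.0 to 59.2 CPM and Tob1 143 CPM against 116 to 120 CPM in the others. For Bmp4, Id1 and Id3 these were libraries with the lowest summed peritubular and stromal markers of their genotype (1622 CPM in Brg1 WT replicate 1 and 2297 CPM in Brg1 cKO replicate 4).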

How the results depend on the processing

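Directions of the 10 genes were kept under the 21 alternatives, except that with the Sertoli cell median as no change Bmp4 (-0.0862), Bmp7 (-0.251), Bmpr1a (-0.199), Bmpr2 (-0.0759) and Smad6 (-0.0449) turned negative on the log2 scale. So did Rgmb (-0.0581), Tob1 (-0.0519) and Inhbb (-0.00976), which is itself in the Sertoli cell list. With the pan-germ median as no change Id4 (0.131) and Tcf3 (0.135) turned positive. By construction those settings moved the median of all genes from 0.013 to -0.371 and 0.338. The Sertoli setting called 8643 genes in all, 2 of the 10 members (none higher) and 25 of the 65 pathway genes (none higher). The pan-germ setting called 8506 genes, 10 members (9 higher, 1 lower) and 49 pathway genes (45 higher, 4 lower). Leaving out Brg1 WT replicates 1 and 2 together left 444 genes, 0 of the members and 1 pathway gene called, with 2 fewer samples. Leaving out 1 library at a time gave 1616 to 3470 genes, 3 to 6 members and 11 to 24 pathway genes; the count of all genes was 2059, 1796 and 2152 without Brg1 WT replicates 1, 2 and 3, and 1616 and 1904 without Brg1 cKO replicates 1 and 3. The fit with the replicate number as a block called 1914 genes, 3 members and 15 pathway genes, and among the named genes Id3, Tob1, Chrd, Tcf3 and Inhba lost their calls. Same-numbered libraries deviated together in no steady way (correlations -0.367 to 0.152 over genes), so the numbers were not taken as pairs. Leaving out Brg1 cKO replicate 4 with Brg1 WT replicate 2, chosen after seeing the data, called 1790 genes. Requiring 1 CPM in 4 libraries removed Bmp8b and Msx2, which have no value there. Over the members' 209 alternative values, 169 kept direction and side of the threshold, 18 lost and 17 gained a call, and 5 turned sign. The cause of these shifts was not tested. Depth limits the precision of Bmp8b (6.22 to 64.14 estimated counts per library) and Bmp2 (13 to 104).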
